A study of Mus musculus with 8 samples.

Results

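Hoxa9, Hoxa10, Hoxa11 and Hoxa13 are the posterior genes of the HoxA cluster, and in leukemia they are known targets of the MLL methyltransferase and its partner menin. They were chosen by name and are 4 of 26048 annotated genes. H3K4me3, the trimethyl mark on lysine 4 of histone H3, was measured by ChIP-Seq within 1 kb of their starts and between them. Mouse embryonic stem cells (mESCs) came from 1 wild-type (wt) line, TC1, and from 1 line with Men1 knocked out (menin-null), 3.2N, both on the background 129S6/SvEvTac. Pancreatic islet-like endocrine cells (PILECs) were grown in vitro from each line through embryoid bodies and pancreatic precursors, with nicotinamide in the last step. The mESCs were kept on irradiated feeder fibroblasts and freed of them before use. The 8 libraries are thus 1 of H3K4me3 and 1 of input for each line and stage. A difference between genotypes therefore cannot be told apart from one between lines, cultures or libraries, and no p-value is given.

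Hox genes encode homeodomain transcription factors that lie in clusters in the order in which they act along the body axis, and the posterior genes pattern the caudal trunk, the limbs and the urogenital tract. The pancreas, by contrast, arises from foregut endoderm. MLL1 and MLL2, as parts of COMPASS-like complexes that hold menin, place H3K4me3 at promoters, and at active Hox clusters the mark can spread over gene bodies beyond the promoters. In mESCs many Hox promoters carry H3K4me3 together with the repressive mark H3K27me3, a state called bivalent.

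All members lie on the minus strand of chromosome 6 in the mouse genome (mm9), in the order Hoxa9, Hoxa10, Hoxa11 and Hoxa13. All have more than 1 annotated start, and the start used was the one with the most H3K4me3 summed over the 4 libraries. Hoxa9 (ENSMUSG00000038227.7, chr6:52173099-52181088) has 4 starts, and the one used, at 52176150, lies in exon 1 of the main transcript. Hoxa10 (ENSMUSG00000000938.9, chr6:52181196-52190853) has 5, and the one used, at 52183705, is the start of a shorter transcript inside the intron of the main one. Hoxa11 (ENSMUSG00000038210.9, chr6:52192107-52196213) has 2 starts, with 52195794 used, and Hoxa13 (ENSMUSG00000038203.11, chr6:52207693-52210874) has 3, with 52210796 used.

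The first sequences shown, to place the mark within the genes, are the 200-bp windows with the most H3K4me3 tags at Hoxa9 and Hoxa10 in PILECs of both genotypes together, given 5′ to 3′ on the minus strand of mm9 with each CG dinucleotide in capitals. CG is shown because H3K4me3 in mammals gathers over stretches rich in CG. The Hoxa9 window, chr6:52175801-52176000, lies wholly in exon 1, within its coding part. The Hoxa10 window, chr6:52183801-52184000, holds the last 43 bases of exon 1 of the main transcript and 157 bases of the intron after it.
Hoxa9 window: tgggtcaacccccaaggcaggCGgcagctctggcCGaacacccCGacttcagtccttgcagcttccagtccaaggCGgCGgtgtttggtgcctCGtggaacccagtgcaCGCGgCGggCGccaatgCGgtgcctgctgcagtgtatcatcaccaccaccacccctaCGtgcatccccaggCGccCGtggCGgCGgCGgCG
Hoxa10 window: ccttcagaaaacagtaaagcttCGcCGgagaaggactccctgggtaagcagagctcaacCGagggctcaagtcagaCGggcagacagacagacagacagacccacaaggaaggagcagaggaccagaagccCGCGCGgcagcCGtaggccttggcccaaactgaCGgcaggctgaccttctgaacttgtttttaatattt
The Hoxa9 window holds 18 CG and the Hoxa10 window 9. In the order wt mESCs, menin-null mESCs, wt PILECs and menin-null PILECs, the Hoxa9 window had 5, 6, 23 and 1 H3K4me3 tags, and the Hoxa10 window 0, 3, 19 and 2. Input tags in these windows numbered 1 to 3 at Hoxa9 and 0 to 3 at Hoxa10. Most tags behind the choice of window came from wt PILECs, so these counts are a description.

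The promoters are given next as the 250 bases before each RefSeq start, taken from the RefSeq table of GRCm38.p6 and found once each in mm9 on the minus strand, again with CG in capitals. They are shown because the members differ in CG there. The Hoxa11 promoter is not shown. The stretches in mm9 are chr6:52177370-52177619 for Hoxa9, chr6:52184939-52185188 and chr6:52190854-52191103 for the inner and the outer start of Hoxa10, and chr6:52210875-52211124 for Hoxa13.
Hoxa9 promoter: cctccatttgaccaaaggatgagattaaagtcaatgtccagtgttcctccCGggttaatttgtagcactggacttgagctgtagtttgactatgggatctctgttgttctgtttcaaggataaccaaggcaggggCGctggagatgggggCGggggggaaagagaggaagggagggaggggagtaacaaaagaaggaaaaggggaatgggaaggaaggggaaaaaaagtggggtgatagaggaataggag
Hoxa10 inner promoter: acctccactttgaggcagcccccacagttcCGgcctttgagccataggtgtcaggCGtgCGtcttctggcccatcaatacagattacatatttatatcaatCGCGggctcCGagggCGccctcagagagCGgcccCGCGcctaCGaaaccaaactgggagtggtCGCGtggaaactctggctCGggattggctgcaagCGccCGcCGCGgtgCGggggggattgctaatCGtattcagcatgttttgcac
Hoxa10 outer promoter: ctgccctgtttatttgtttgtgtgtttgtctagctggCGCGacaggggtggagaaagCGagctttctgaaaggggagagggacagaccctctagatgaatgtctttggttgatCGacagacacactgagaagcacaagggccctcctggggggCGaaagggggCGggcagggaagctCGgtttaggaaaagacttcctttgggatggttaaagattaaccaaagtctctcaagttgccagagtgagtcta
Hoxa13 promoter: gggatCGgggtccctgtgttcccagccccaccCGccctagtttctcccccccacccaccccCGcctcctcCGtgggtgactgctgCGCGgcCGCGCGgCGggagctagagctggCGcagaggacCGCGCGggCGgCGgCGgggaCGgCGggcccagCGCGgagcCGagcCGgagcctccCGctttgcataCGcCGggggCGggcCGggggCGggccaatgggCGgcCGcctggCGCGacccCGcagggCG
With the 50 bases after the start included, these promoters hold 4 CG at Hoxa9, 21 at the inner and 12 at the outer start of Hoxa10, and 45 at Hoxa13, and that of Hoxa11 holds 15. The median over the 32851 promoters of the table is 7, with quartiles of 3 and 20. The Hoxa9 promoter is thus among the poorer in CG, and 49.7% of its bases are G or C against 81% at Hoxa13. The motif TATAAA, searched on both strands, occurs once in the inner Hoxa10 promoter and in 13.6% of all promoters of the table. CCAAT occurs once in the inner Hoxa10 promoter, once in that of Hoxa13 and in 37.4% of all. Over the wider stretch within 1 kb of the start used, all members were richer in CG than the median gene. Hoxa9 had 119 CG, Hoxa10 137, Hoxa11 141 and Hoxa13 198, against a median of 59 over all genes, and Hoxa13 had more than 98.8% of genes.

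The microRNA gene Mir196b, whose family is known for sites in Hox mRNAs, lies between the starts used of Hoxa9 and Hoxa10. Its mature form, from the RefSeq table, is shown with bases 2 to 8, the seed that pairs with targets, in capitals.
mmu-miR-196b-5p: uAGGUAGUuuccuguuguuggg
The hairpin lies at chr6:52180080-52180164. The same seed is found in miR-196a-5p, from chromosomes 11 and 15, where the HoxB and HoxC clusters are.

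The H3K4me3 libraries held 2432377 to 18773635 tags and the inputs 3744616 to 19016697, with the mESC libraries the shallower, so values from mESCs rest on fewer tags. Counts are tags within 1 kb of the start, RPM is the count per 1000000 tags of the library, and each log2 ratio of RPM has an exact 95% interval that covers counting error alone. In Men1 exons 3 to 8 the inputs held 17 tags from wt mESCs and 22 from wt PILECs, and 0 from both kinds of menin-null cells, where a count of 0 allows up to 3. The H3K4me3 libraries held 0, 0, 24 and 0 tags there in the order used above. As to the cell labels, all 8 pluripotency markers had less H3K4me3 in PILECs than in mESCs by over 2-fold in both genotypes. Of the islet hormone genes, Ins2 had 17 tags in wt and 22 in menin-null PILECs against 8 and 13 in the inputs, whereas Ins1 had 4 and 9 against 18 and 22, Gcg 6 and 8 against 15 and 19, and Iapp 13 and 6 against 11 and 20. H3K4me3 counts thus exceeded input in both PILEC libraries at 1 of these 4 hormone genes.

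In PILECs, Hoxa9 and Hoxa10 had 0.157 and 0.153 times the wt H3K4me3 in menin-null cells, whereas Hoxa11 and Hoxa13 had 0.822 and 0.772 times the wt level, with intervals that included no difference. Hoxa9, a regulator of blood stem and progenitor cells that is highly expressed in MLL leukemia, had 6 H3K4me3 tags in mESCs of the wt line and 21 in those of the menin-null line, against 108 and 16 in the PILECs of these lines. In RPM these are 2.47, 5.97, 5.75 and 0.905, and the inputs in the same order had 2.59, 1.07, 1.16 and 0.662. The wt PILECs and the menin-null mESCs stood well above their inputs, while wt mESCs and menin-null PILECs were close to theirs. The log2 ratio of menin-null to wt PILECs was -2.67 (95% interval -3.53 to -1.90). The inputs alone gave -0.81 (-1.95 to 0.27) in the same window. In these bulk cells, fewer cells with the mark and less of the mark per cell cannot be told apart.

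Hoxa10, which acts in the uterus, the male genital tract and blood cells, had a ratio between the PILECs close to that of Hoxa9. Its H3K4me3 tags numbered 12 in wt and 26 in menin-null mESCs, and 97 in wt and 14 in menin-null PILECs, or 4.93, 7.39, 5.17 and 0.792 RPM. Its inputs had 2.12, 0.801, 0.789 and 0.773 RPM. The menin-null PILECs were at the input level, with a log2 ratio of H3K4me3 to input of 0.04 (-1.14 to 1.21), and the other libraries were above it, although in wt mESCs the interval reached 0. Between the PILECs the log2 ratio was -2.71 (-3.63 to -1.89), and the inputs gave -0.03 (-1.19 to 1.12).

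Hoxa11, which shapes the forearm bones, the kidney and the uterus, had 9, 21, 31 and 24 H3K4me3 tags in the same order of libraries, or 3.70, 5.97, 1.65 and 1.36 RPM. Inputs had 2.59, 1.60, 0.789 and 0.717 RPM. All H3K4me3 values lay above input, but only in menin-null mESCs and wt PILECs did the interval leave out 0. The log2 ratio of menin-null to wt PILECs was -0.28 (-1.12 to 0.53).

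Hoxa13, which is needed for the digits, the hindgut and the genital tract, had 24, 51, 44 and 32 tags, or 9.87, 14.5, 2.34 and 1.81 RPM. Its inputs had 1.88, 1.60, 0.526 and 0.497 RPM. Hoxa13 stood above its input in all 4 kinds of cells, with log2 ratios of H3K4me3 to input from 1.87 to 3.18 and no interval that reached 0. The log2 ratio of menin-null to wt PILECs was -0.37 (-1.08 to 0.32).

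**Figure D1:**
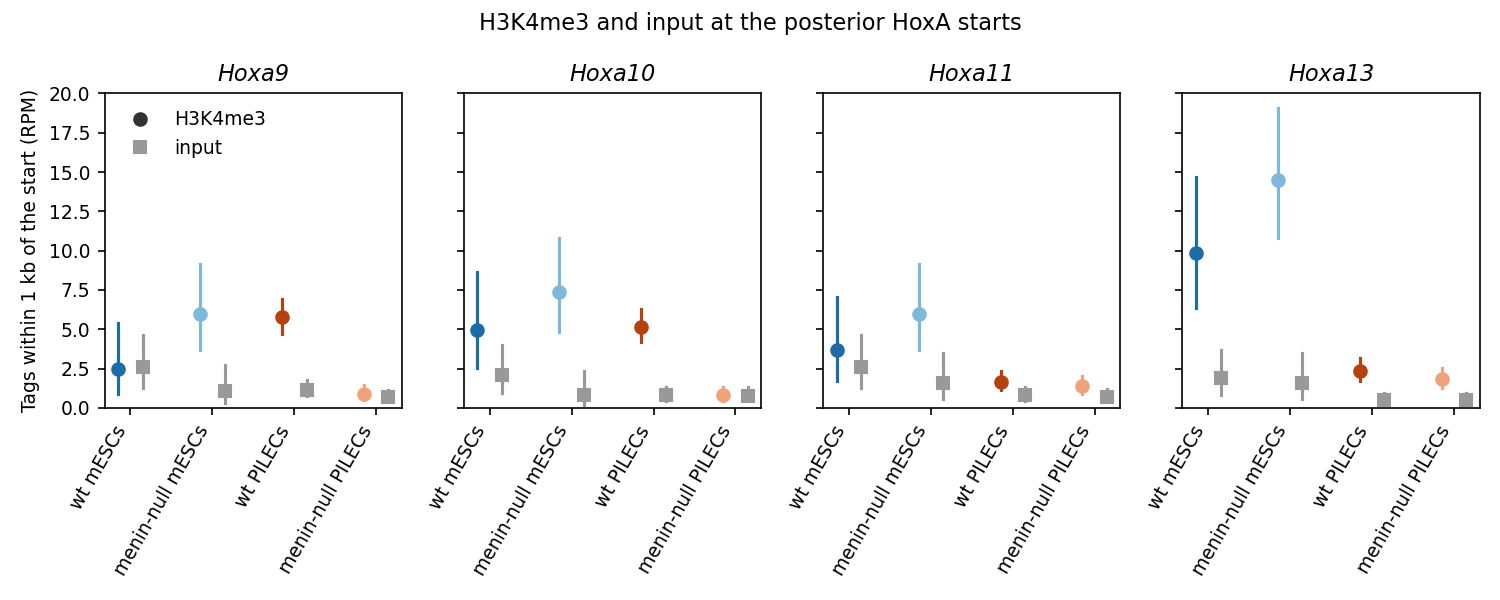
H3K4me3 (circles) and input (squares) within 1 kb of the start of each member, in RPM, with exact 95% counting intervals as bars and 1 library per point. At Hoxa9 and Hoxa10 the menin-null PILECs, at 0.905 and 0.792 RPM, sit with the inputs, while wt PILECs are at 5.75 and 5.17 RPM.

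The windows all span 2001 bp, so levels can be ranked within a library. In wt mESCs the order was Hoxa13, Hoxa10, Hoxa11 and Hoxa9, and no neighbours in it differed beyond counting error. In menin-null mESCs Hoxa13 led and exceeded Hoxa10 by a log2 ratio of 0.97 (0.26 to 1.71), followed by Hoxa9 and Hoxa11 at equal counts, with no further step beyond counting error. In wt PILECs Hoxa9 and Hoxa10 led, the latter above Hoxa13 by 1.14 (0.61 to 1.69), with Hoxa11 last. In menin-null PILECs the order was Hoxa13, Hoxa11, Hoxa9 and Hoxa10, again with no step beyond counting error. Against all genes these levels were middling or low. Hoxa10 in menin-null PILECs exceeded 32.8% of genes, the lowest of the 16 values, and Hoxa13 in menin-null mESCs 54.4%, the highest.

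The members split into pairs in the comparison of menin-null with wt PILECs. Over the 6 pairs of members, the log2 ratio of Hoxa9 was lower than that of Hoxa11 by 2.39 and than that of Hoxa13 by 2.30, and the ratio of Hoxa10 lower by 2.42 and 2.33, with no interval that reached 0. Hoxa9 and Hoxa10 differed by 0.04 (-1.17 to 1.26), and Hoxa11 and Hoxa13 by 0.09 (-1.01 to 1.18). With 1 tag added to each count and at least 20 tags in both libraries together, 2 of the 4 members were at least 2-fold lower in menin-null PILECs and 0 at least 2-fold higher. Over all 20147 genes with that many tags, 1.69% were at least 2-fold lower and 1.73% at least 2-fold higher, with a median log2 ratio of -0.07. These were 340 and 348 genes, and the balance varied, with 262 lower and 430 higher under scaling by the median gene, 240 and 460 under scaling by tags near starts, 175 and 36 of 14928 genes with at least 50 tags, and 271 and 35 of 13693 with the PILEC libraries thinned. Only 0.0596% of genes had a lower ratio than Hoxa9 and 0.0496% a lower one than Hoxa10, against 23.5% for Hoxa11 and 16.2% for Hoxa13.

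**Figure D2:**
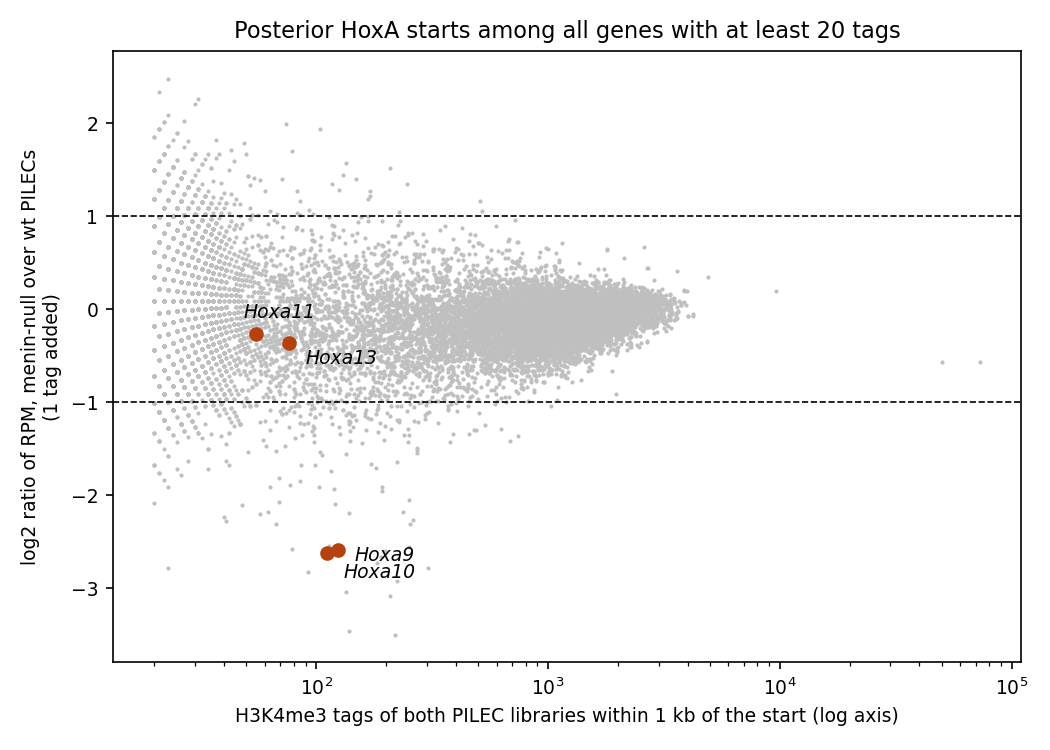
Each point is a gene with at least 20 H3K4me3 tags in the 2 PILEC libraries together, placed by those tags (log axis) and by the log2 ratio of menin-null to wt RPM with 1 tag added, with dashed lines at 2-fold and the members in orange. Hoxa9 and Hoxa10 lie near the lower edge of the cloud for their tag counts, and Hoxa11 and Hoxa13 lie inside it.

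These values, and with them the split into pairs, depend on the start chosen, which was picked by H3K4me3 in these same libraries. At the outermost annotated start of Hoxa10, at 52190853, wt PILECs had 63 tags and menin-null PILECs 31, a log2 ratio of -0.94 (-1.61 to -0.29). This interval overlaps those of Hoxa11 and Hoxa13 at their starts used, so the split of Hoxa10 from them is not clear at that start. At the inner RefSeq start, 52184938, the counts were 52 and 18, and at the start used 97 and 14. At 52190794, next to the outermost start, they were 64 and 32, and at 52183323 they were 91 and 13. The outer pair of starts thus had ratios nearer to 1 than the 3 inner ones. Hoxa9 varied less among its starts, with 42 and 9 tags at the RefSeq start, 50 and 9 at 52180264 and 36 and 7 at the outermost start, 52181088. With the tags near any start of a gene counted once, the log2 ratios were -2.48 for Hoxa9, -1.62 for Hoxa10, -0.30 for Hoxa11 and -0.33 for Hoxa13. Hoxa9 and Hoxa10 still had the lower ratios. Thinned to the depth of the wt mESC library, the Hoxa10 ratio was -1.59 (-4.11 to 0.42). With input subtracted no usable ratio was left at either gene, since the menin-null PILECs had 16 H3K4me3 tags against 12 of input at Hoxa9 and 14 against 14 at Hoxa10.

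In mESCs the H3K4me3 values at the 4 starts used were higher in menin-null than in wt cells. The log2 ratios were 1.28 (-0.08 to 2.87) at Hoxa9, 0.58 (-0.45 to 1.70) at Hoxa10, 0.69 (-0.50 to 2.00) at Hoxa11 and 0.56 (-0.17 to 1.32) at Hoxa13. No single interval left out 0, while the tags of the 4 starts together, 51 in wt and 119 in menin-null mESCs, gave 0.69 (0.21 to 1.19). By the rule used above, 1 member, Hoxa9, was at least 2-fold higher and 0 were at least 2-fold lower, against 0.938% and 0.898% of 15143 genes, or 142 higher and 136 lower. The scale of this comparison was itself shifted, since the median gene had a log2 ratio of 0.22, and 52.1% of the tags of menin-null mESCs against 44.2% of those of wt mESCs lay within 1 kb of a start. Relative to the median gene the members were at 1.05, 0.36, 0.47 and 0.33, so the direction held at the starts used. With 1 tag added, however, Hoxa9 was then at 0.90 and no longer past 2-fold, against 45 genes higher and 293 lower on that scale, and 43 and 312 under scaling by tags near starts. The interval of the 4 starts together, shifted likewise, ran from -0.02 to 0.97 and reached 0. At the outermost starts, where few tags fell, the ratio was -0.95 (-3.72 to 1.62) at Hoxa9 and -0.53 (-2.44 to 1.37) at Hoxa10. The direction thus varied among starts. At the RefSeq start of Hoxa9, 52177369, wt mESCs had 1 tag and menin-null mESCs 3. At the inner RefSeq start of Hoxa10, 52184938, they had 9 and 30, or 3.70 and 8.53 RPM. At 52180264 of Hoxa9, and at 52183323 and 52190794 of Hoxa10, menin-null mESCs had the lower RPM.

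The difference between genotypes was itself compared between the stages. The log2 ratio of menin-null to wt was lower in PILECs than in mESCs by 3.94 at Hoxa9 (interval of the difference -5.71 to -2.30) and by 3.29 at Hoxa10 (-4.71 to -1.89). At Hoxa11 the difference was -0.97 (-2.52 to 0.52) and at Hoxa13 -0.93 (-1.97 to 0.10). The intervals thus left out 0 at Hoxa9 and Hoxa10 and reached it at Hoxa11 and Hoxa13. With the outermost starts the differences were -1.33 (-4.19 to 1.78) at Hoxa9 and -0.40 (-2.42 to 1.63) at Hoxa10, both with 0 inside the interval. For the inner RefSeq start of Hoxa10 no such difference was computed. H3K4me3 there was 3.70 RPM in wt and 8.53 in menin-null mESCs, and 2.77 in wt and 1.02 in menin-null PILECs.

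From wt mESCs to wt PILECs, H3K4me3 at the 4 starts moved in different directions. It was higher in PILECs at Hoxa9, with a log2 ratio of 1.22 (0.05 to 2.70), similar in level at Hoxa10, at 0.07 (-0.80 to 1.07), and lower at Hoxa13, at -2.07 (-2.82 to -1.29). At the outermost start of Hoxa9, with 36 tags in wt PILECs and 4 in wt mESCs, the ratio was 0.22 (-1.26 to 2.17), below 2-fold and with 0 inside the interval. Hoxa11 was at -1.16 (-2.27 to 0.09). The inputs were also lower in wt PILECs than in wt mESCs in these windows, at -1.16 (-2.27 to 0.03) for Hoxa9, -1.43 (-2.71 to -0.05) for Hoxa10, -1.71 (-2.94 to -0.45) for Hoxa11 and -1.84 (-3.33 to -0.30) for Hoxa13. Such a fall was not particular to the members. Input went from 2.35 to 0.999 RPM at Evx1 and from 2.82 to 1.42 at Hibadh, though from 0.471 to 1.21 at Tax1bp1. With input subtracted, Hoxa13 was at -2.13 and Hoxa11 at -0.37, below 2-fold though on a remainder in wt mESCs that did not differ from 0 within counting error, while Hoxa9 had no value because wt mESCs were not above their input. The ratio of Hoxa9 exceeded that of Hoxa13 by 3.30 (1.83 to 4.95), and that of Hoxa10 exceeded it by 2.14 (0.93 to 3.40). By the 2-fold rule, without input subtracted, 2 members, Hoxa11 and Hoxa13, were lower and 1, Hoxa9, higher, against 16.1% of 16490 genes lower and 7.08% higher. In menin-null cells, by contrast, all 4 members were at least 2-fold lower in PILECs than in mESCs, with log2 ratios of -2.72 at Hoxa9, -3.22 at Hoxa10, -2.14 at Hoxa11 and -3.00 at Hoxa13. The background there was 23.5% of 16721 genes lower and 5.72% higher, with a median of -0.35. These were 3927 genes lower and 956 higher, and 2704 and 1669 with scaling by the median gene. The inputs between the menin-null stages were at -0.69, -0.05, -1.16 and -1.69 for the members in the same order, each with 0 inside its interval. These comparisons share libraries with those above and are no independent evidence, and at the outermost start of Hoxa10 the ratio in menin-null cells was 0.04 (-1.24 to 1.59).

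Between the starts, menin-null PILECs had less H3K4me3 than wt PILECs in the stretches that border Hoxa9 and Hoxa10, and the ratios came nearer to 1 towards Hoxa13. Stretches were taken between neighbouring starts, outside 1 kb of both. From Hoxa7 to Hoxa9, over 2296 bp, wt PILECs had 108 H3K4me3 tags and menin-null PILECs 7, a log2 ratio of -3.86 (-5.21 to -2.77). Only 245 bp of this stretch lie between the annotated genes, with 9 tags in wt and 0 in menin-null PILECs. The rest lies inside Hoxa9 and is part of its gene body counted below. From Hoxa9 to Hoxa10, over 5554 bp with Mir196b inside, the counts were 121 and 27, a ratio of -2.08 (-2.74 to -1.47). From Hoxa10 to Hoxa11, over 10088 bp, they were 157 and 78, at -0.92 (-1.33 to -0.52), and from Hoxa11 to Hoxa13, over 13001 bp, 90 and 70, at -0.28 (-0.75 to 0.19). Beyond Hoxa13, in the 50749 bp up to Evx1, there were 322 and 351 tags, at 0.21 (-0.01 to 0.43). At full depth the ratios thus ran in the order of the genes along the chromosome, and the intervals of neighbouring stretches overlapped beyond Hoxa10 and not before it. With the PILEC libraries thinned, in 1 random draw, the order was not kept. The stretch from Hoxa10 to Hoxa11 was then at -0.62 (-1.66 to 0.38) and that from Hoxa11 to Hoxa13 at -1.12 (-2.80 to 0.38). These intervals overlapped, so the draw cannot show whether the order depends on depth.

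Measured against input, the wt PILECs had H3K4me3 above background in the stretch from Hoxa9 to Hoxa10. There they had 121 tags against 43 and a log2 ratio of 1.51 (1.00 to 2.05). From Hoxa10 to Hoxa11 they were also above it, at 0.63 (0.26 to 1.00). Other starts of Hoxa9 and Hoxa10 lie in these stretches, and their part in the values was not tested. From Hoxa11 to Hoxa13 the wt PILECs were not above input, at -0.13 (-0.56 to 0.29). The menin-null PILECs were at or below input in all 3 stretches, at -0.57 (-1.32 to 0.17), -0.37 (-0.81 to 0.07) and -0.64 (-1.10 to -0.20). The 2 input libraries of PILECs had 43 and 41, 103 and 103, and 100 and 112 tags in these stretches, so their log2 ratios lay between 0.00 and 0.23. In mESCs the counts in the same stretches were 11 and 7, 14 and 27, and 13 and 24, too few to leave 0 out of any interval.

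Gene bodies were counted outside 1 kb of any start, and H3K4me3 there exceeded input beyond counting error at Hoxa9 in wt PILECs alone. In the body of Hoxa9 there were 5, 1, 126 and 14 tags in the order of libraries used above, and the log2 ratio of menin-null to wt PILECs was -3.08 (-4.00 to -2.28). Inputs there had 4, 8, 32 and 18 tags, and the ratio of H3K4me3 to input in wt PILECs was 2.00 (1.43 to 2.60). The greater part of this body is the stretch towards Hoxa7 given above, so both results share tags. In that of Hoxa10 there were 3, 8, 61 and 20 tags, at -1.52 (-2.33 to -0.77), against 12, 10, 46 and 42 input tags, so that wt PILECs were at 0.43 (-0.15 to 1.01) and menin-null PILECs at -1.04 (-1.88 to -0.23) relative to input. Near the start of Mir196b, inside the Hoxa9 gene as annotated, there were 6, 5, 53 and 11 tags, at -2.18 (-3.27 to -1.23). Hoxa11 and Hoxa13 had at most 13 tags in their bodies in any of these libraries. By the annotated ends of the genes no bases are left between Hoxa9 and Hoxa10 outside 1 kb of a start, and 8471 bp between Hoxa11 and Hoxa13 had 12, 14, 53 and 42 tags. Over the whole span of 38698 bp, from the end of Hoxa9 to 1 kb before the Hoxa13 start, there were 93, 178, 747 and 268 tags, with 15.2 RPM in menin-null PILECs, below the 17.4 RPM of their input.

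**Figure D3:**
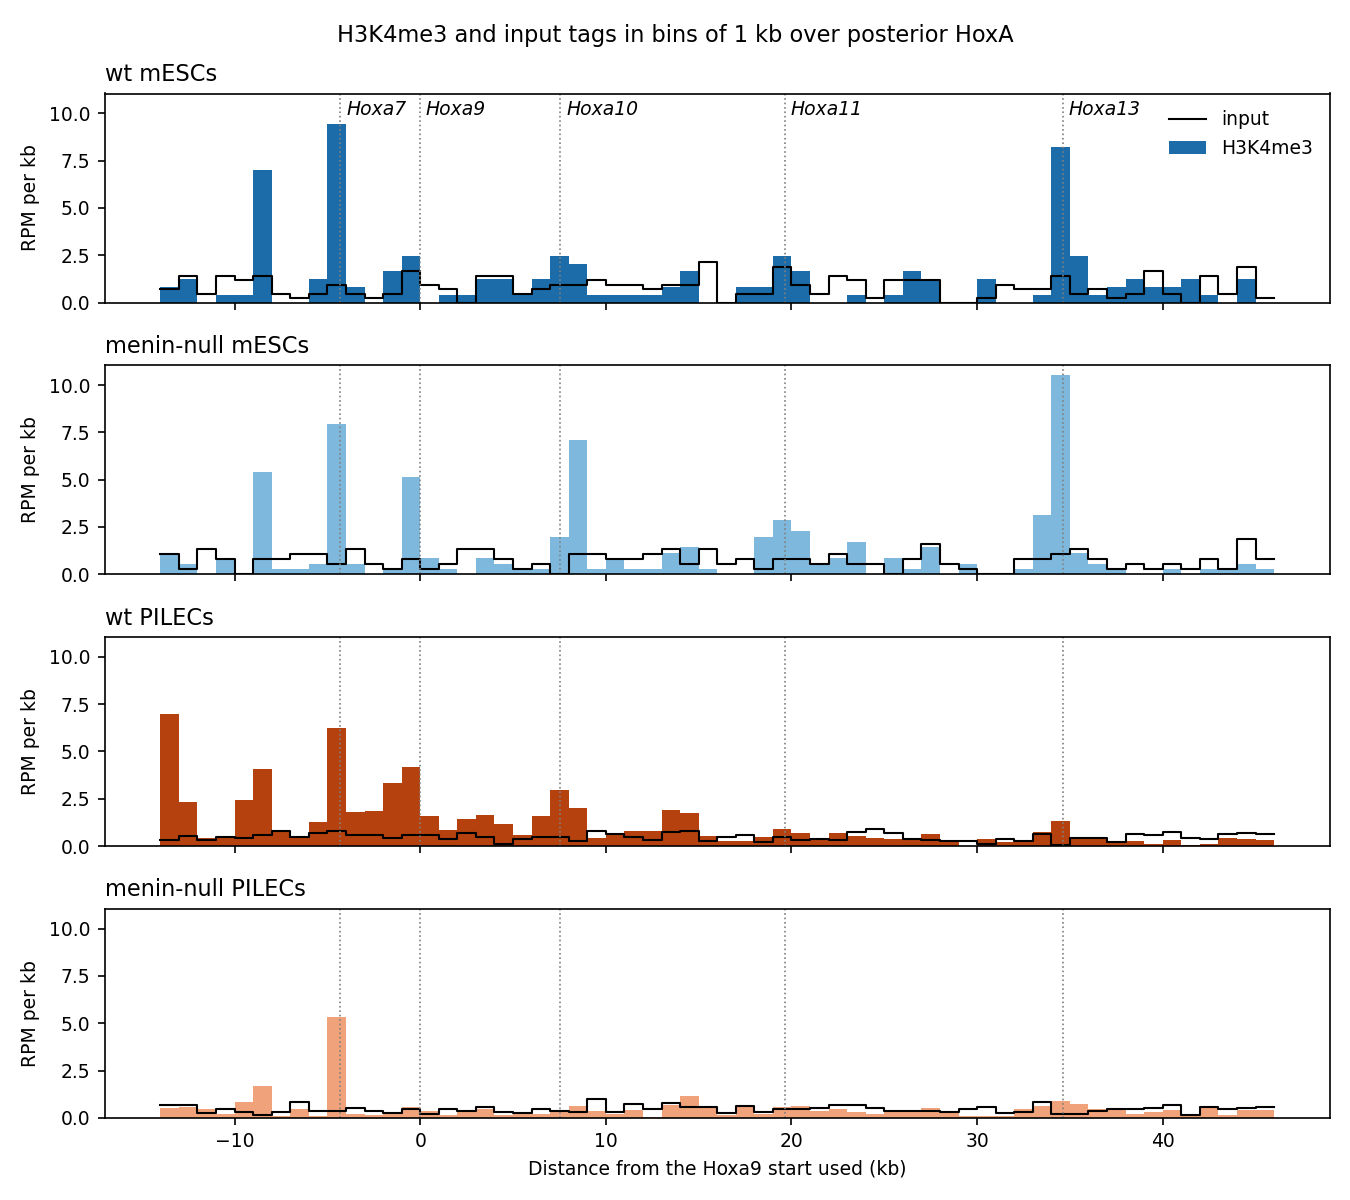
H3K4me3 (filled) and input (line) in RPM per 1-kb bin against the distance from the Hoxa9 start used, with dotted lines at the starts used and the same vertical scale in each panel. In wt PILECs the bins around Hoxa9 and Hoxa10 reach 4.15 and 2.98 RPM, in menin-null PILECs the same bins are at 0.57 and 0.40 RPM, and in mESCs the highest bin of the members is at Hoxa13.

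Breadth was described by the share of 200-bp windows at 0.5 RPM or more. Over Hoxa9 and Hoxa10, 18 of 88 windows (20.5%) were at that level in wt PILECs and 0 of 88 in menin-null PILECs. From Hoxa11 to Hoxa13, 1 of 104 windows was at that level in each. The PILEC inputs had 0 of 193 windows at that level over the whole span. In mESCs 9 of the 88 windows in wt and 16 in menin-null cells reached it, but at the depth of these libraries 2 tags are enough, and their inputs reached it in 4 and 8. With the PILEC libraries thinned to the total of the wt mESC library, 18 windows of 88 in wt and 3 in menin-null PILECs were at the level.

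Enriched regions were called on the 2 genotypes pooled, which gave 2 regions over the members in PILECs and 1 in mESCs. In PILECs the region at Hoxa9, chr6:52174001-52176200, had 151 tags in wt and 15 in menin-null cells, a log2 ratio of -3.25 (-4.12 to -2.48). It reached from exon 1 across the intron and into the last exon of the main transcript. It overlaps the start window, the body and the stretch towards Hoxa7 counted above, so these values share tags. The region at Hoxa10, chr6:52183001-52184400, had 77 and 11 tags, at -2.72 (-3.78 to -1.80). Most tags of both regions came from wt cells, so wt cells had the larger part in their choice, and the ratios are given as a description. At least 2-fold lower in menin-null PILECs were both of these and 1.27% of 13106 regions, and nothing is read from that count. In mESCs the region lay at Hoxa13, chr6:52210001-52211000, with 21 tags in wt and 42 in menin-null cells, at 0.47, and it was not at least 2-fold lower, as 0.339% of 11195 regions were. With a stricter window threshold 1 of the 2 PILEC regions was left.

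Against the anterior genes Hoxa2 to Hoxa7 of the same cluster, the posterior ones had the lower summed ratio in PILECs at the starts used. In PILECs, 2 of these 6 anterior genes were at least 2-fold lower in menin-null cells, against 1.69% of all genes. These were Hoxa2 at -1.78 and Hoxa6 at -2.71. The others were Hoxa3 at -0.74, Hoxa4 at -0.21, Hoxa5 at -0.89 and Hoxa7 at -0.48. The ratio over the summed posterior starts, 280 tags in wt and 86 in menin-null PILECs, was lower than that over the summed anterior starts, 761 and 386 tags, by 0.72 (interval of the difference -1.13 to -0.32). This direction was not kept with the outermost start of every gene, where the difference was 0.32 (-0.10 to 0.74). In mESCs the posterior ratio was the higher by 0.63 (0.05 to 1.22), and with 1 tag per position and strand by 0.55 (-0.05 to 1.16). Over 8 alternatives this difference in mESCs lay between 0.25 and 0.69. Low ratios in PILECs thus occurred among anterior and posterior genes alike, at the starts used of Hoxa2, Hoxa6, Hoxa9 and Hoxa10. Anterior enriched regions of PILECs were low at more genes. The region with starts of Hoxa3 and Hoxa6 was at -3.10, that of Hoxa7 at -1.38 and that of Hoxa5 at -1.09. The regions chr6:52126201-52128200 and chr6:52112801-52114600 were at -3.73 and -2.12, and that of Hoxa4 at -0.20. As wt cells gave more of their tags, these ratios too are a description.

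**Figure D4:**
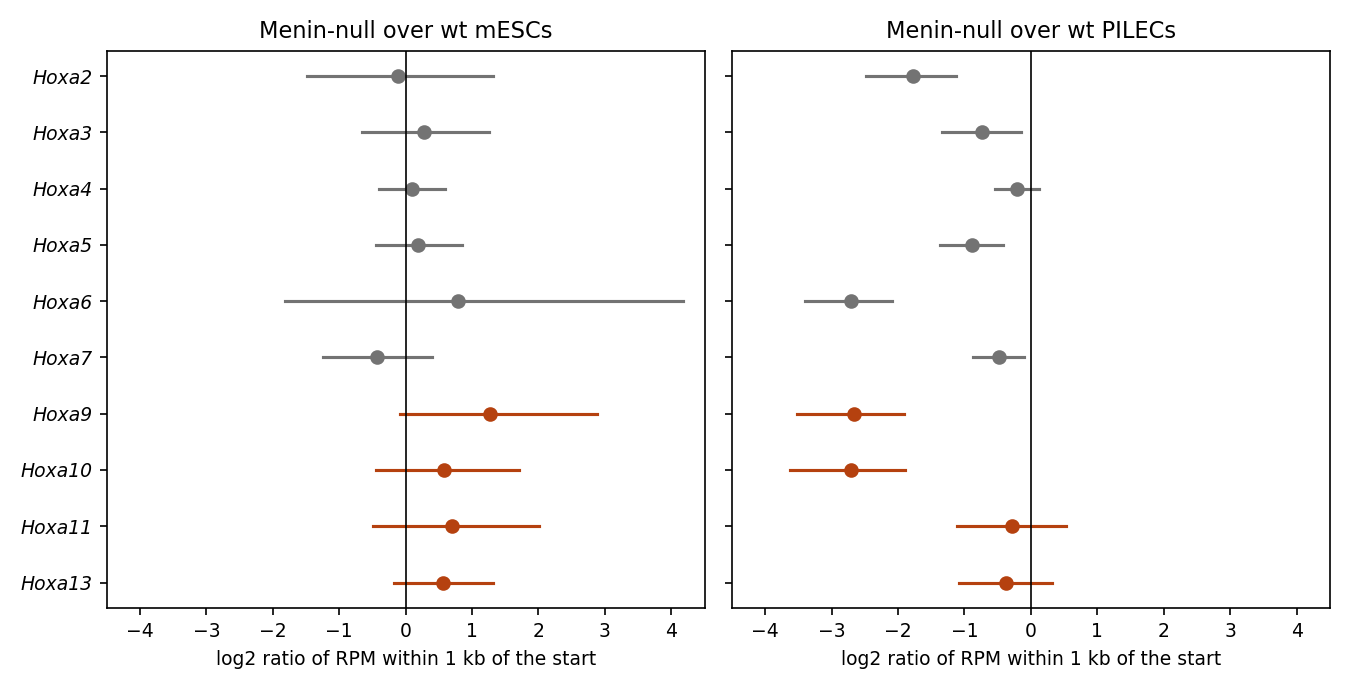
Log2 ratio of menin-null to wt RPM within 1 kb of the start used of 10 HoxA genes, in mESCs (left) and PILECs (right), with exact 95% counting intervals, anterior genes in grey and posterior genes in orange. In PILECs, Hoxa6, Hoxa9 and Hoxa10 lie near -2.7 and Hoxa11 and Hoxa13 near 0, and in mESCs the 4 posterior genes lie between 0.56 and 1.28.

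Of the genes beside the posterior cluster, Evx1, a homeobox gene next to Hoxa13, had 46 tags in wt and 26 in menin-null PILECs, at -0.74 (-1.49 to -0.01). Hibadh, an enzyme of valine breakdown, and Tax1bp1, an autophagy receptor, had 522 and 455 tags, and 821 and 751, at -0.11 (-0.30 to 0.07) and -0.04 (-0.19 to 0.10). The antisense gene Hoxa11as shares its window with Hoxa11 and had the same 31 and 24 tags. At these 4 neighbours 0 starts passed 2-fold in either direction, against 1.69% of all genes lower and 1.73% higher. The Hoxa11as value is largely that of Hoxa11 again. Inside the Hoxa9 gene, the start of RP23-329P9.11, at 52180531, had 48 tags in wt and 9 in menin-null PILECs. Its window overlaps that of Mir196b, with 53 and 11.

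The posterior genes of the other Hox clusters were compared in the same PILEC libraries. Of 12 measured, 5 were at least 2-fold lower in menin-null cells and 0 higher, against 1.69% and 1.73% of all genes. The median log2 ratio of the 12 was -0.56 against -0.07 over all genes. Hoxb9 had 215 tags in wt and 40 in menin-null PILECs, Hoxc9 173 and 26, Hoxc10 72 and 26, Hoxd10 33 and 15, and Hoxd11 51 and 16. The 7 others were between -0.70 and 0.28. Hoxd10 only just met the 2-fold rule, at -1.001 with 1 tag added, and relative to the median gene it would not. Of 12 genes outside the Hox clusters known as targets of MLL and menin in leukemia 0 were past 2-fold, with a median of -0.21. Of 9 genes for menin and the MLL complexes 0 were past 2-fold, with a median of -0.06. Both counts stand beside the same 1.69% and 1.73% of all genes.

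Markers of other cell types were compared between the same PILEC libraries, menin-null against wt. Counts past 2-fold are over the genes with at least 20 tags, beside 1.69% lower and 1.73% higher over all genes. Sums are over every annotated gene of the list, given for menin-null and then wt PILECs. Of 13 islet markers with enough tags 0 were past 2-fold, and the 16 of the list summed to 113 and 107 RPM. Of 8 pluripotency markers 0 were past it, with sums of 46.1 and 44.6 RPM, and of 6 neural markers 0, with sums of 123 and 126 RPM. Of 7 muscle markers 0 were past it, and the 8 of the list summed to 12.5 and 13.0 RPM. Of 8 caudal and mesoderm regulators 0 were past it, and the 9 of the list summed to 19.7 and 21.5 RPM. Of 11 fibroblast markers Lum was lower, with 22 tags in wt and 6 in menin-null PILECs, and S100a4 higher, with 6 and 14. Their inputs in wt and menin-null PILECs had 11 and 16 tags at Lum and 20 and 23 at S100a4. The fibroblast markers summed to 87.3 RPM in menin-null and 101 RPM in wt PILECs. Of 3 liver and yolk sac markers with enough tags Hnf4a was lower, with 17 tags in wt and 6 in menin-null PILECs. Its inputs had 15 and 22 tags. The 5 of the list summed to 2.32 RPM in menin-null and 3.20 RPM in wt PILECs. Apart from wt PILECs at Lum and Hnf4a, these H3K4me3 counts lay below their inputs. No marker of these lists was at 0 in a PILEC library, and the part of such differences in the HoxA values was not tested.

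The genes most like each member were sought by the distance between log2 RPM over the 4 H3K4me3 libraries, among genes with enough tags. The nearest to both Hoxa9 and Hoxa10 was 2700086A05Rik, a long noncoding RNA gene on chromosome 6, with 8, 27, 82 and 10 tags, at distances of 0.90 and 0.74. Hoxa10 at 0.97 and Slc6a5 at 1.07 followed for Hoxa9, and Gm20398 at 0.89 and Hoxd4 at 0.96 for Hoxa10. Nearest to Hoxa11 were Hoxa11as at 0.07, 1810059H22Rik at 0.21 and Procr at 0.25, and nearest to Hoxa13 were Gm15247 at 0.14, Sox15 at 0.20 and Mlkl at 0.31. The Hoxa11as window overlaps that of Hoxa11, so their match was set by shared tags. Whether the 2700086A05Rik window overlaps that of a member was not examined. Apart from these, Hoxa10 appears for Hoxa9 and Hoxd4 for Hoxa10, and no Hox gene is among the 3 nearest to Hoxa13. Likeness over 4 libraries rests on few values and is given as a description.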

How the data were processed

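The data are 8 ChIP-Seq libraries, 1 of H3K4me3 and 1 of input for every genotype and stage. The authors aligned 36-bp reads to mm9, kept uniquely placed reads and deposited 1 line per tag, so the deposited values are tag positions and the counts are unnormalized numbers of tags. The alignment score deposited by the authors was not used. The members, gene lists, tests and alternatives were chosen with earlier results of these data known.

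Each tag was moved to the middle of its 250-bp fragment and counted in Python 3.11.15 (scipy 1.17.1, pandas 2.3.3, numpy 2.4.6), with figures from matplotlib 3.10.9. Duplicate tags and the tags with over 2 mismatches were kept. Starts came from Gencode vM1. RPM was scaled by the total tags of the library. Log2 ratios were given exact conditional (Clopper-Pearson) 95% intervals, and differences of log2 ratios those of the odds ratio. PCR copies are not independent molecules, so the intervals cover counting error only. Genes past 2-fold had 1 tag added to each count and at least 20 tags in the 2 libraries. Enriched regions were runs of 200-bp windows with a Poisson p of at most 1e-05, merged where 400 bp or less apart, with a length of 1000 bp or more and at least 2 times the input density. Both PILEC libraries and both mESC libraries were pooled for this. The intervals and the 2-fold rule were tested on simulated Poisson counts, which hold no PCR copies. Counting within windows was checked on a few positions written by hand. Genes were named by rule: the members, the anterior HoxA genes, the annotated neighbours, list genes past 2-fold in PILECs and the 3 genes nearest to each member. The hormone genes and Mir196b are from the lists, the former chosen for the check of the label. The anterior genes compared, Hoxa2 to Hoxa7, were settled after their values had been seen. The stretches between the starts used and the tags near any start, as well as the 2-fold calls relative to the median gene, were added after seeing the data. Among the genes beside the cluster, Hottip and Hoxa11os were not analysed here, and 1 item is not reported here.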

Additional observations from a re-analysis of the deposited data

Results flagged for a closer look

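At 2 starts the difference between genotypes itself differed between the stages, with an interval of the difference that left out 0. At Hoxa9 the log2 ratio of menin-null to wt H3K4me3 was 1.28 in mESCs and -2.67 in PILECs, a difference of -3.94 (-5.71 to -2.30). At Hoxa10 it was 0.58 and -2.71, a difference of -3.29 (-4.71 to -1.89). Both rest on 1 library per kind of cell, on 6 and 12 tags in wt mESCs, and on the start used, and at the outermost starts both intervals reached 0.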

How the results depend on the processing

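No paired analysis was possible because each condition has 1 library. Over the alternatives, 268 of 283 log2 ratios and differences of the members were within their interval, 13 moved outside it, and 2 whose interval had left out 0 changed sign and are called reversed. The alternatives covered scaling, duplicates, mismatches, tag position, window, start, depth, input and thresholds. With every gene counted at its outermost start, the ratio of menin-null to wt PILECs was -0.94 at Hoxa10, that in mESCs -0.95 at Hoxa9 and -0.53 at Hoxa10, both of the opposite sign, though their intervals had held 0 before, and that of menin-null PILECs to mESCs -1.11 at Hoxa9 and 0.0393 (reversed) at Hoxa10. The differences between stages became -1.33 and -0.40, and the posterior minus anterior difference in PILECs reversed to 0.32. With input subtracted, Hoxa9 and Hoxa10 were at -4.24 and -7.84 between PILECs, at -4.34 and -8.43 between menin-null stages, and the stretch from Hoxa9 to Hoxa10 at 3.87 between wt stages. These sizes cannot be read, because the remainder in menin-null PILECs, or in wt mESCs for the stretch, did not differ from 0 within counting error. Another 13 results had no value because the input was at least as high. The PILEC libraries, thinned in 1 random draw, gave -1.59 at Hoxa10 and -1.12 from Hoxa11 to Hoxa13. They gave 35 genes higher between PILECs and 1644 lower between wt stages. The cause of these moves was not tested.

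Counts over all genes moved more. Lower and higher genes between mESC genotypes were 312 and 43 with scaling by tags near starts, and 293 and 45 with scaling by the median, and higher genes between menin-null stages 1690 and 1669. A 500-bp window gave 114 higher between PILECs and a 2-kb window 1575 higher between menin-null stages. With no minimum the counts lower and higher were 727 and 1094 between PILECs and 2713 and 1415 between mESCs, with 6991 lower between wt stages and 6828 and 1674 between menin-null stages. With at least 50 tags they were 175 and 36, 21 and 76, and 1462 lower between wt stages. At 3-fold they were 57 and 50, 14 and 10, 1691 and 441, and 2153 and 408. A minimum length of 600 bp gave 2 regions over the members in mESCs, and a Poisson p of at most 1e-07 left 1 in PILECs, which was 1 of 1 lower. With 400-bp windows, and the level doubled with them to 1 RPM, 0% of the windows of the span were at it in menin-null PILECs. Depth limits the comparisons of the members, which had 6 to 51 H3K4me3 tags in mESCs and 14 to 32 in menin-null PILECs. Relative to the median gene, Hoxa9 was no longer past 2-fold between mESC genotypes, at 0.90, and the other 2-fold calls of the members stood.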
